A study of Mus musculus with 4 samples.

Results

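The 10 genes described here form the core and the direct outputs of the circadian clock, the transcriptional loop that keeps time within single cells. They are Arntl, which encodes BMAL1, the repressor genes Per1, Per2, Per3 and Cry1, the nuclear receptor genes Nr1d1 and Nr1d2, and the output factors Dbp, Tef and Hlf. The members are a list of names, and no measured value enters the rule that finds them. The names were drawn up with earlier results of these data known, so the list is not blind to them. Each was found as 1 row among 52125 rows of the deposited table, and all 10 were among the 18285 genes with enough reads to be tested.

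The libraries came from the stomach corpus of wild type C57BL/6 mice aged 6 to 8 weeks, with 1 mouse per library. The HDT group held 2 mice taken 48 hr after 1 intraperitoneal injection of HDT at 5 mg per 20 g of body weight, given to damage the stomach. HDT is read here as high-dose tamoxifen, a meaning that the labels do not spell out. The control group also held 2 mice, which the titles call Vehicle-48hr and the protocol text calls untreated. The sources used here do not give the time of day at which tissue was taken, the light cycle or the feeding state.

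In the clock, BMAL1 pairs with CLOCK or NPAS2, binds E-box elements and activates the Per, Cry and Nr1d genes together with Dbp, Tef and Hlf. PER and CRY proteins inhibit that pair, whereas REV-ERBα and REV-ERBβ, the products of Nr1d1 and Nr1d2, repress Arntl through elements called ROREs, at which ROR receptors act as activators. Arntl transcripts therefore usually peak at the opposite time of day from Nr1d1 and Dbp transcripts. DBP, TEF and HLF are the PAR bZIP factors, which activate genes through D-box elements that the repressor NFIL3 also binds. Such clocks run in most tissues, including the gut.

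The elements that join these genes were looked for in RefSeq promoter windows of 300 bases on GRCm38.p6, mostly upstream of an annotated start. The sequences below are shown because they belong to the member that rose (Arntl), the member that fell most (Tef), a repressor gene that fell (Cry1) and the members without a call (Per1 and Per3). Each runs 5′ to 3′ on the strand of its gene. Capitals mark the RORE in Arntl, the E-box CACGTG in Tef, Cry1 and Per1, the related CACGTT, read on the opposite strand, in Cry1, and the D-box TTANNTAA in Per3.
Arntl, chr7:113207527-113207556, plus strand: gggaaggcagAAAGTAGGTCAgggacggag
Tef, chr15:81811164-81811413, plus strand: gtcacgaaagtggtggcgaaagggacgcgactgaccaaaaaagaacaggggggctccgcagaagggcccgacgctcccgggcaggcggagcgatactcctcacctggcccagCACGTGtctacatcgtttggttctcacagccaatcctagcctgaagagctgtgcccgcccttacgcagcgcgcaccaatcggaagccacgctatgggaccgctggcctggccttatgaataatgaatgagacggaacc
Cry1, chr10:85185065-85185304, minus strand: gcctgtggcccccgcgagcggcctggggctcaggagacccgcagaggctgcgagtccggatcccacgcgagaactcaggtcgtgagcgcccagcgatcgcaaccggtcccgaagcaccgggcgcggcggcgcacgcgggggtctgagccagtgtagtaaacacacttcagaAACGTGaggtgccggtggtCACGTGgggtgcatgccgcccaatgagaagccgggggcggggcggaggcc
Per1, chr11:69098699-69098947, plus strand: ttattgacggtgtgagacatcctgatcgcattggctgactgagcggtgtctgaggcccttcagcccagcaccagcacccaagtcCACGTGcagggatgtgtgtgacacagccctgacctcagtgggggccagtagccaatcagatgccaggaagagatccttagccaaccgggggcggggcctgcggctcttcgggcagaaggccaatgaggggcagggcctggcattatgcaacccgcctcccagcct
Per3, chr4:151044666-151044915, minus strand: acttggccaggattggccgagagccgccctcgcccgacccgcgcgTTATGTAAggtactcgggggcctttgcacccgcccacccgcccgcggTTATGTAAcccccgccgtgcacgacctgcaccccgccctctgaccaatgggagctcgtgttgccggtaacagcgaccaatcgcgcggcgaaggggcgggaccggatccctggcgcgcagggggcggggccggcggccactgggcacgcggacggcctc

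The windows covered 9 of the 10 members, in 12 windows, and Per2 was not among them. Both strands were searched, and a palindromic match was counted 1 time. An E-box was found for 3 members (Per1, Cry1 and Tef) in 4 of the 12 windows, against 7.15% of 32817 promoter windows, a share per window. CACGTT was found for 2 members (Cry1 and Nr1d1), in 2 windows, against 4.69%. The D-box was found for 2 members (Per3 and Tef), in 2 windows, against 6%. A RORE, searched as its 11-base consensus, was found for 1 member (Arntl), against 0.384%. In GENCODE M21 it lies within annotated exon sequence, and whether that exon belongs to Arntl was not checked. A CRE, TGACGTCA, was found in the window of Hlf, against 1.79%, and its shorter core TGACG, which every CRE also holds, for 3 members (Per1, Cry1 and Hlf) in 4 windows, against 20.8%. None of these motifs was found in the windows of Nr1d2 and Dbp. These are letter matches in short windows, and elements further away were not searched.

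Depth was even, at 41536686 to 42674985 recovered reads per library, and the members held 109 to 1778 reads each. Atp4a, a defining gene of the acid-secreting parietal cells of the corpus, was at 6782 and 7649 CPM (reads scaled to a common library total) in vehicle and 1109 and 879.8 CPM in HDT, and so was present in every library. Markers of several cell types moved with the groups. The summed level of 7 chief cell markers was 155773.8 and 189094.9 CPM in vehicle and 45485.5 and 32139.2 CPM in HDT, with 5 of 6 tested lower and Lipf at 0 throughout. Most of this sum was Pgc, at 139900 and 171700 CPM in vehicle and 39660 and 29180 CPM in HDT. Surface mucous markers summed to 123352.8 and 120389.8 against 65806.4 and 80669.5 CPM, with 6 of 7 lower, and 3 of 4 neck mucous markers were lower and 1 higher. The summed level of 14 parietal cell markers was 15149.4 and 16953.1 CPM in vehicle and 3196 and 2668.3 CPM in HDT, with 11 of 14 lower and 1 higher. Atp4a with Atp4b (4723 and 4974 CPM in vehicle) made up most of the vehicle sum. Gif was counted in both the parietal and the chief list. The 11 macrophage markers summed to 214.3 and 226.4 against 468.4 and 392.7 CPM, 9 of them higher and none lower, and the 10 fibroblast markers to 1217.1 and 1192.7 against 2057.5 and 2294.6 CPM, with 6 higher and 1 lower. The 8 proliferation markers, all higher, summed to 149.8 and 170 against 622.3 and 521.5 CPM. Of 14 pancreatic acinar markers, 7 had enough reads to be tested. The list summed to 104.6 and 312.3 CPM in vehicle replicates 1 and 2 and to 19.5 and 20.4 CPM in HDT, with 2 lower. The part of these shifts in the clock gene results was not tested. In bulk RNA, fewer cells of a type and less RNA per cell cannot be told apart.

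At 48 hr after HDT and with TMM scaling, Arntl was higher and 7 of the other 9 clock genes were lower, while Per1 and Per3 had no call. That is 8 of 10 genes called, against 37.7% of all tested genes. The output factors Tef and Hlf fell most, to 39% and 47.8% of vehicle, and Per2, Cry1, Nr1d1, Dbp and Nr1d2 were at 56.1% to 83.9%, the last 3 of these with the opposite sign at the deposited scaling. By limma with Benjamini-Hochberg adjustment over all tested genes, 18.4% of the genes were called higher and 19.3% lower, against 1 and 7 of the 10 members. Their median log2 fold change was −0.50, against −0.002 over all tested genes. The groups did not overlap in any of the 10 genes, with HDT above in 2 (35.3% of all tested genes) and below in 8 (35.5%), and 70.8% of all tested genes showed no overlap.

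The size of these changes depends on how the libraries are scaled. With the deposited table's own scaling the median of all tested genes moved to 0.53 on the log2 scale, and 92% of all calls were rises, against 48.9% with TMM. There 3 clock genes were called higher (Arntl, Per1 and Nr1d2, against 62.8% of all genes) and 2 lower (Tef and Hlf, against 5.46%). Arntl, Tef and Hlf were thus the 3 members called in the same direction under both scalings. Per2 and Cry1 kept their direction without a call, and Per3, Nr1d1, Nr1d2 and Dbp turned to the other sign. With 2 mice per group, limma borrows its estimate of the spread from all genes.

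**Figure D1:**
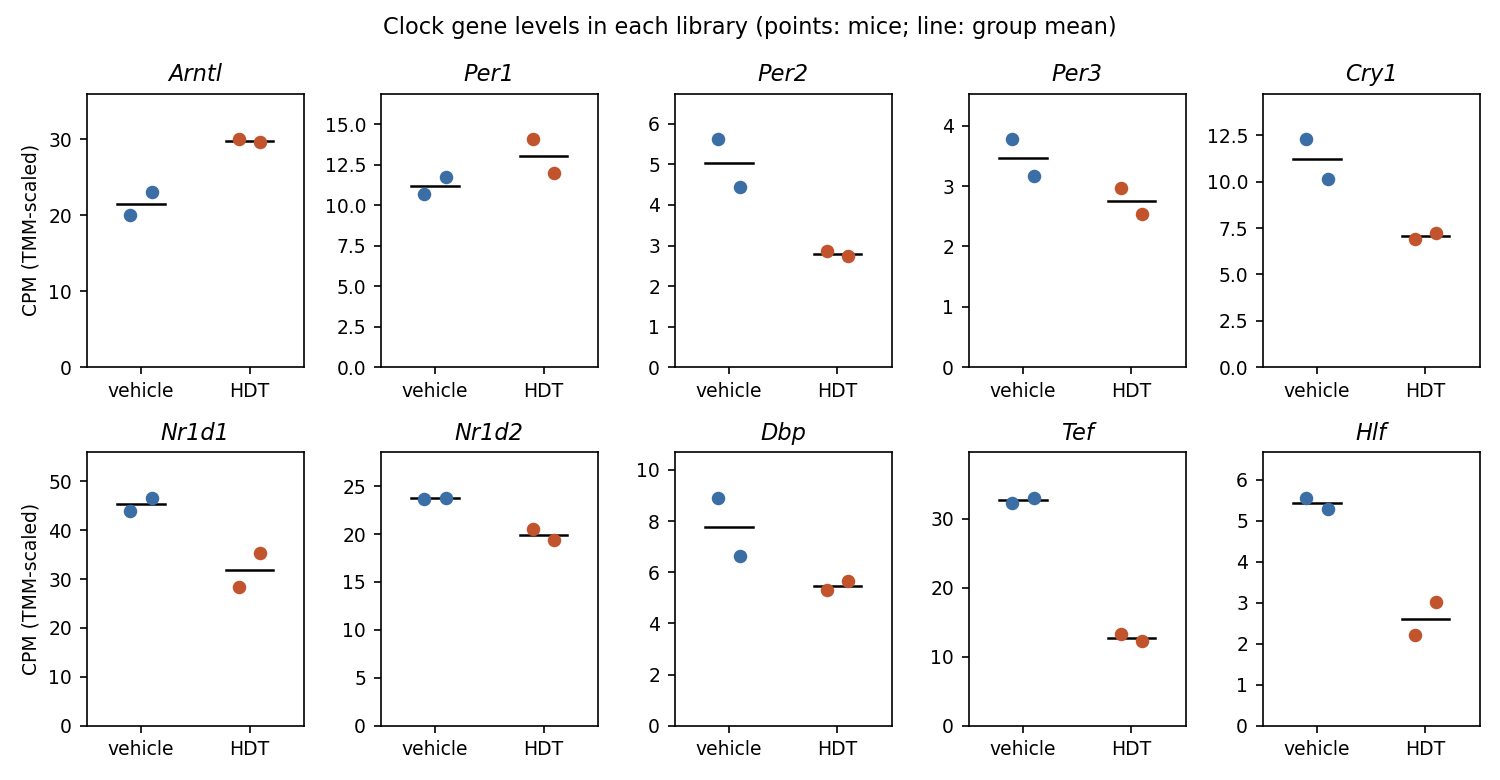
Level of each clock gene in each library, in CPM with TMM scaling on linear axes that start at 0; points are mice (vehicle blue, HDT orange, replicate 1 at the left of each pair) and lines are group means. Arntl and Per1 sit higher in both HDT mice and the other 8 genes lower, and the largest falls as a share of vehicle are those of Tef and Hlf; at the deposited scaling Per3, Nr1d1, Nr1d2 and Dbp have group means of the opposite order.

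Arntl (chromosome 7, 113207465 to 113314126, GRCm38, plus strand) encodes BMAL1, the activator that the loop cannot run without. It was at 19.97 and 23.1 CPM in the vehicle mice and at 30 and 29.6 CPM in the HDT mice. The HDT pair was close together and above both vehicle mice. The means were 21.5 ± 2.20 and 29.8 ± 0.28 CPM (SD, n = 2), a log2 fold change of 0.47 (95% interval 0.27 to 0.67, limma adjusted p = 0.0037). The deposited scaling gave a larger change, 1.00 (limma adjusted p = 5.63e-06). The call was held under all 16 listed alternatives, though only just in limma without trend or robust moderation, whose adjusted p rounds to 0.05. With 1 library left out the log2 fold change ran from 0.36 to 0.57. An antisense gene, Gm45355, shares 33 exon bases with Arntl and had 48 to 152 reads per library, and the strand setting of the counting is unknown here.

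Tef and Hlf, 2 of the 3 PAR bZIP genes, had the largest falls of the 10 genes. Tef (chromosome 15, 81802421 to 81826863, plus strand) had 32.3 and 33.1 CPM in vehicle and 13.3 and 12.2 CPM in HDT. Mice within a group were nearly equal, and the gap between groups far exceeded the spread within them. Its log2 fold change was −1.36 (SE 0.08, limma adjusted p = 1.37e-05), and −0.83 at the deposited scaling (limma adjusted p = 2.18e-05). Hlf (chromosome 11, 90336536 to 90390895, minus strand) had 5.57 and 5.28 CPM in vehicle and 2.22 and 3.01 CPM in HDT. The HDT mice differed from each other more than the vehicle mice did, yet both were low. The log2 fold change was −1.06 (SE 0.18, limma adjusted p = 0.00242), and −0.53 at the deposited scaling (limma adjusted p = 0.0221). Tef shares 193 exon bases with the antisense gene Gm17597, which had 0 to 3 reads per library. Tef and Hlf were called lower under the same 16 alternatives.

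Dbp, the third PAR bZIP gene (chromosome 7, 45705088 to 45710203, plus strand) and a strongly rhythmic output of the clock, was less certain. It had 8.92 and 6.62 CPM in vehicle and 5.29 and 5.65 CPM in HDT. The vehicle mice lay 0.43 apart on the log2 scale, close to the change itself, −0.49 (95% interval −0.85 to −0.13, limma adjusted p = 0.0415). Without vehicle replicate 1, the higher of the pair, the change was −0.28 (limma adjusted p = 0.266), and without HDT replicate 1 or HDT replicate 2 it was −0.44 and −0.52 with no call (limma adjusted p = 0.155 and 0.102). Without vehicle replicate 2 it was −0.71 (limma adjusted p = 0.00335). With the deposited scaling it was 0.04 (limma adjusted p = 0.84). The gene shares 539 exon bases, 18% of its own, with Sphk2 on the opposite strand, so reads there cannot be assigned without strand. Sphk2, a sphingosine kinase gene, had 66.1 ± 2.55 CPM in vehicle and 71.1 ± 2.32 CPM in HDT (limma adjusted p = 0.233).

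The ratios of these 3 genes to each other do not depend on scaling. Reads of Tef over reads of Dbp were 3.62 and 5.0 in vehicle and 2.51 and 2.16 in HDT, so Tef was lower relative to Dbp in both HDT mice. Hlf over Dbp was 0.624 and 0.798 in vehicle and 0.419 and 0.533 in HDT. Tef over Hlf overlapped between the groups, at 5.8 and 6.26 against 5.99 and 4.06.

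Among the repressors of BMAL1, Per2 and Cry1 fell. Per2 (chromosome 1, 91415982 to 91459324, minus strand), which encodes a PERIOD protein that holds the complex with CRY together, had 5.62 and 4.44 CPM in vehicle and 2.86 and 2.73 CPM in HDT. The HDT mice were alike, and the vehicle mice were spread but higher. Its log2 fold change was −0.83 (SE 0.16, limma adjusted p = 0.00518). Cry1 (chromosome 10, 85131700 to 85185064, minus strand), a cryptochrome and a strong inhibitor of BMAL1 with CLOCK, had 12.3 and 10.1 CPM in vehicle and 6.92 and 7.21 CPM in HDT. Again the groups were apart and vehicle replicate 1 was the highest library. The log2 fold change was −0.66 (SE 0.12, limma adjusted p = 0.004). Per2 and Cry1 were at −0.30 and −0.13 at the deposited scaling, without a call (limma adjusted p = 0.149 and 0.409).

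Per1 and Per3 had no call. Per1 (chromosome 11, 69095217 to 69109960, plus strand), the PERIOD gene that also responds quickly to glucocorticoids and cAMP, had 10.7 and 11.7 CPM in vehicle and 14.1 and 11.97 CPM in HDT. The HDT mice were above the vehicle mice by a margin smaller than the spread between them, with a log2 fold change of 0.21 (95% interval −0.04 to 0.47, limma adjusted p = 0.17). It was 0.10 without HDT replicate 1, 0.14 without vehicle replicate 1 and 0.35 without HDT replicate 2, with no call. It was called higher at the deposited scaling, at 0.74 (limma adjusted p = 0.000261). Per3 (chromosome 4, 151003652 to 151044665, minus strand), a PERIOD gene that the loop can spare, had 3.78 and 3.17 CPM in vehicle and 2.98 and 2.54 CPM in HDT. Its log2 fold change was −0.33 (95% interval −0.73 to 0.07, limma adjusted p = 0.172) with TMM and 0.20 at the deposited scaling (limma adjusted p = 0.361), and with TMM it was −0.20 without HDT replicate 2 and −0.21 without vehicle replicate 1. Per1 was higher relative to Per2 in both HDT mice than in both vehicle mice. Reads of Per1 over reads of Per2 were 1.9 and 2.64 in vehicle and 4.93 and 4.38 in HDT, a 2.07-fold larger ratio.

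The REV-ERB genes were lower by smaller amounts. Nr1d1 (chromosome 11, 98767932 to 98775333, minus strand), which encodes REV-ERBα, had 43.9 and 46.7 CPM in vehicle and 28.4 and 35.2 CPM in HDT. The HDT mice were the more spread pair and both lay below the vehicle pair, with a log2 fold change of −0.52 (SE 0.10, limma adjusted p = 0.00712) that became 0.02 at the deposited scaling (limma adjusted p = 0.882). Nr1d1 shares 263 exon bases, 8.5% of its own, with the thyroid hormone receptor gene Thra on the opposite strand. Thra was itself lower, at 65.0 ± 4.28 and 48.0 ± 0.90 CPM (limma adjusted p = 0.00186), and reads of the shared stretch cannot be assigned without strand.

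Nr1d2 (chromosome 14, 18204054 to 18239127, minus strand), which encodes REV-ERBβ, had 23.7 and 23.8 CPM in vehicle and 20.5 and 19.4 CPM in HDT. The mice of each group were close and the groups apart, but the change was the smallest among the called members, −0.25 (95% interval −0.42 to −0.08, limma adjusted p = 0.0293). The call was lost without vehicle replicate 1, vehicle replicate 2 or HDT replicate 2 (limma adjusted p = 0.0938, 0.0979 and 0.136). Nr1d2 was instead called higher at the deposited scaling, at 0.28 (limma adjusted p = 0.0133). Reads of Nr1d1 over reads of Nr1d2 were 1.85 and 1.96 in vehicle and 1.39 and 1.82 in HDT.

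**Figure D2:**
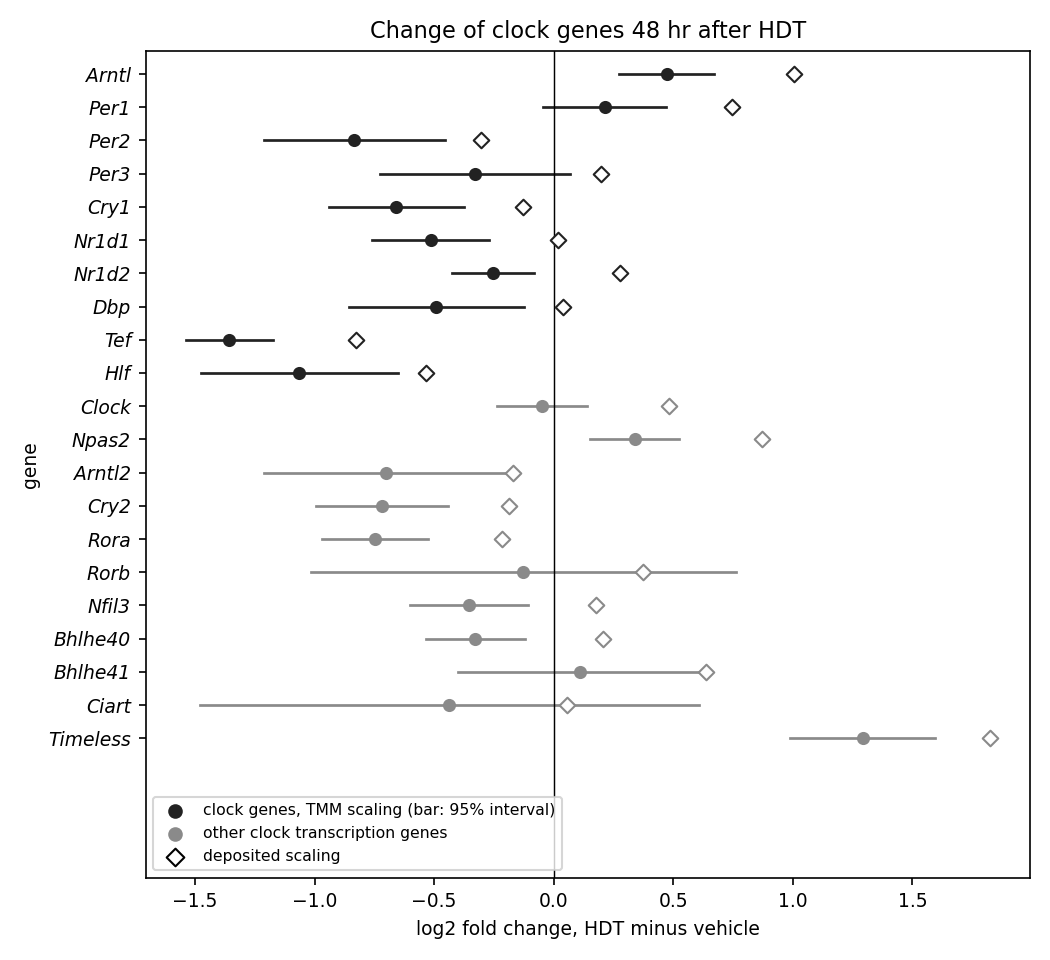
Log2 fold change, HDT minus vehicle, of the 10 clock genes (black) and of 11 other clock transcription genes (grey); circles with bars are TMM values with 95% intervals from limma and open diamonds are values at the deposited scaling. The diamonds lie about 0.53 to the right of the circles, so that Nr1d1, Nr1d2, Dbp and Per3 of the black genes and Clock, Rorb, Nfil3, Bhlhe40 and Ciart of the grey genes change sign, while the others keep theirs.

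Because the scaling decides the sign of several members, Arntl was also set against each other member within the same library. The ratio of reads was higher in both HDT mice than in both vehicle mice for 9 of 9 members, against 71.8% of the other 18284 tested genes set under Arntl in the same way. For every member except Per1 this separation follows from the TMM levels above, with Arntl higher and the member lower without overlap. The members' differences ran from 0.26 (Per1) to 1.83 (Tef) on the log2 scale. Arntl over Dbp was 2.24 and 3.49 in vehicle and 5.67 and 5.24 in HDT, a mean log2 difference of 0.96 between groups. Arntl over Nr1d1 was 0.455 and 0.495 in vehicle and 1.06 and 0.84 in HDT, a 1.98-fold larger ratio. Arntl over Tef went from 0.619 and 0.698 to 2.26 and 2.42, so that the gene with fewer reads of the 2 in vehicle had more in HDT. All 9 ratios share the reads of Arntl and are not independent. An exact two-sided permutation test over 4 libraries cannot give a p below 0.333, which is the value for each of these ratios. In all, 24 ratios were computed, and the lowest p after Benjamini-Hochberg adjustment of these exact tests was 0.363.

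**Figure D3:**
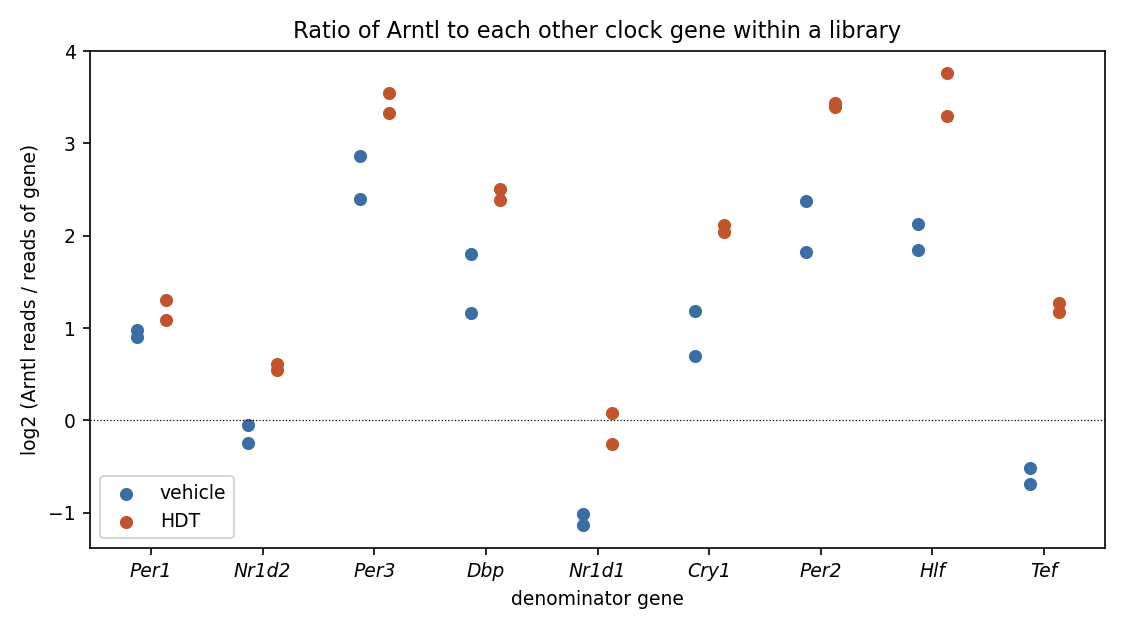
Log2 ratio of Arntl reads to the reads of each other clock gene within a library (vehicle blue, HDT orange, 1 point per mouse), ordered by the difference between groups from Per1 (0.26) to Tef (1.83). Every HDT point lies above both vehicle points of its gene, and these ratios do not depend on library scaling.

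Per kilobase of exon, on TMM-scaled CPM, Nr1d1 was the highest member in vehicle, at 14.7 ± 0.64, and Per3 the lowest, at 0.361 ± 0.045 (SD, n = 2). Between them came Nr1d2 (4.39), Tef (4.15), Cry1 (3.36), Arntl (2.86), Dbp (2.60), Per1 (1.99), Per2 (0.86) and Hlf (0.81). In that order the libraries of Cry1 and Arntl, of Arntl and Dbp, and of Per2 and Hlf overlapped. In HDT the order of levels was Nr1d1 (10.3), Arntl (3.96), Nr1d2 (3.69), Per1 (2.31), Cry1 (2.12), Dbp (1.83), Tef (1.62), Per2 (0.478), Hlf (0.391) and Per3 (0.287). Only the libraries of Per1 and Cry1 overlapped among neighbours there. Tef thus went from the third to the seventh place and Arntl from the fifth to the second. The lengths are unions of all annotated exons in GENCODE M21, which may be longer than the transcripts used in this tissue.

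The mice of a group differed in a pattern of their own. In the vehicle pair, Dbp, Per2, Cry1 and Per3 were higher in replicate 1, by 0.43, 0.34, 0.28 and 0.26 on the log2 scale, and Arntl was higher in replicate 2, by 0.21 (−0.21 for replicate 1 over replicate 2). Over tested genes with a mean of 2 to 50 CPM the median absolute difference of this pair was 0.10. Tef, Nr1d2, Hlf and Nr1d1 differed by less than 0.10 between the same mice. In the HDT pair, Hlf and Nr1d1 were lower in replicate 1 (−0.44 and −0.31), Per1 and Per3 were higher (0.23 and 0.23), and the median absolute difference was 0.11. Smooth muscle markers also differed within the groups, at a sum of 3046.4 and 2156.4 CPM in vehicle and 1824.3 and 2671.1 CPM in HDT. The 12 immediate-early genes described below summed to 362.5 and 312.3 CPM in vehicle and 321.8 and 305.5 CPM in HDT. Some genes of this list differed more in the vehicle pair. Fosb was at 7.53 and 0.958 CPM in vehicle and 3.23 and 3.03 CPM in HDT. Nr4a1 was at 20.1 and 10.6 against 7.49 and 7.61 CPM, and Atf3 at 25.7 and 13.7 against 18.35 and 19.9 CPM. Sik1 (32.7 and 33.8 CPM) and Nr4a2 (41.1 and 41.3 CPM) were nearly equal in vehicle. The part of either list in the gaps of the clock genes between mice was not tested.

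Of 11 further clock transcription genes, 2 were called higher and 5 lower (median log2 fold change −0.33), against 18.4% and 19.3% of all tested genes. The deposited scaling gave 4 higher and 0 lower, against 62.8% and 5.46%. Of the partners of BMAL1, Clock had no call, at 43.6 ± 3.80 and 42.1 ± 2.31 CPM (limma adjusted p = 0.665; at the deposited scaling 0.48 on the log2 scale, limma adjusted p = 0.000399), while its paralogue Npas2 rose from 13.5 ± 0.05 to 17.1 ± 0.21 CPM (log2 fold change 0.34, limma adjusted p = 0.0125). The Npas2 call was lost without vehicle replicate 1 (limma adjusted p = 0.0506). Arntl2, which encodes the related BMAL2, was called lower, at 4.82 ± 0.83 and 2.99 ± 0.82 CPM (log2 fold change −0.70, limma adjusted p = 0.0383), and not called without vehicle replicate 2 or HDT replicate 1 (limma adjusted p = 0.134 and 0.165). The second cryptochrome gene, Cry2, fell with Cry1, from 15.8 ± 0.79 to 9.63 ± 1.43 CPM (log2 fold change −0.72, limma adjusted p = 0.00226). At the deposited scaling Cry2 was at −0.19 and Arntl2 at −0.17, without a call (limma adjusted p = 0.185 and 0.474). Cry1 over Cry2 overlapped between the groups, at 0.753 and 0.666 against 0.804 and 0.678.

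Rora and Rorb encode receptors that can activate Arntl through ROREs. Rora went from 14.0 ± 0.71 to 8.34 ± 0.14 CPM (log2 fold change −0.75, limma adjusted p = 0.000621), and was at −0.22 without a call at the deposited scaling (limma adjusted p = 0.0854). Rorb had 11 to 18 reads per library and no call (limma adjusted p = 0.822). Reads of Rora over reads of Nr1d1, a ratio that does not depend on scaling, were 0.308 and 0.311 in vehicle and 0.297 and 0.234 in HDT.

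The repressor gene Nfil3 was called lower, at 12.9 ± 1.22 and 10.1 ± 0.62 CPM (log2 fold change −0.35, limma adjusted p = 0.0327). Its reads relative to those of Tef went from 0.426 and 0.363 to 0.725 and 0.859. Bhlhe40, a repressor at E-boxes, was also called lower (log2 fold change −0.33, limma adjusted p = 0.022). Neither call held without vehicle replicate 1, HDT replicate 1 or HDT replicate 2. Both genes had the opposite sign at the deposited scaling, 0.18 for Nfil3 and 0.20 for Bhlhe40. The related Bhlhe41, at 1.94 ± 0.23 and 2.11 ± 0.49 CPM, and the repressor gene Ciart, at 8 to 16 reads per library, had no call (limma adjusted p = 0.727 and 0.483). Timeless rose from 5.12 ± 0.49 to 12.6 ± 1.60 CPM (log2 fold change 1.29, limma adjusted p = 0.000201). In mammals its product is best known as a replication fork protein, and the proliferation markers were higher in the same libraries. Any link between Timeless and those markers was not tested.

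The kinases, ligases and other enzymes that set the stability of clock proteins were read through 11 genes, of which 2 were called higher and 1 lower (median log2 fold change −0.006), at or below the shares of 18.4% and 19.3% over all tested genes. With the deposited scaling 9 were higher and 1 lower, against 62.8% and 5.46%. Dtl, a ligase adaptor that acts on CRY1 and on replication factors, rose by 1.496 on the log2 scale (limma adjusted p = 0.000792). Csnk1d, a kinase of PER proteins, had a log2 fold change of 0.21 (limma adjusted p = 0.0239), a call lost without either vehicle mouse (limma adjusted p = 0.209 and 0.099). The ubiquitin protease gene Usp2, itself a rhythmic clock output, fell from 13.9 ± 1.41 to 5.88 ± 0.73 CPM (log2 fold change −1.24, limma adjusted p = 0.000213).

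Of 16 tested genes that are often rhythmic outputs of the clock, Usp2 and Ciart among them, none was called higher and 8 were lower (median log2 fold change −0.35), against 18.4% and 19.3% of all tested genes. There were 7 higher and 2 lower at the deposited scaling, against 62.8% and 5.46%. Besides Usp2, the largest falls were those of Herpud1 (log2 fold change −0.97, limma adjusted p = 2.00e-05), a gene of the endoplasmic reticulum stress response, the vasopressin receptor gene Avpr1a (−0.76, limma adjusted p = 0.0114) and Coq10b (−0.54, limma adjusted p = 0.00559), which acts with coenzyme Q. At the deposited scaling Usp2 (−0.71) and Herpud1 (−0.44) were still called lower (limma adjusted p = 0.00118 and 0.000179). Avpr1a (−0.23) and Coq10b (−0.01) had no call there (limma adjusted p = 0.279 and 0.942). Avpr1a was not called without vehicle replicate 1 or HDT replicate 1 (limma adjusted p = 0.0503 and 0.0583).

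Signals that can set peripheral clocks were read through 3 further lists. Of 12 genes of the glucocorticoid response, none was called higher and 7 lower (median log2 fold change −0.49), against 18.4% and 19.3% of all tested genes. The deposited scaling gave 3 higher and 2 lower, against 62.8% and 5.46% of all tested genes. With TMM 5 had no call, among them Fkbp5 (0.11, limma adjusted p = 0.261) and the receptor gene Nr3c1 (−0.002, limma adjusted p = 0.982). Tsc22d3, called lower, was also in the list of clock outputs. Sgk1, a kinase gene, fell by 1.28 on the log2 scale (limma adjusted p = 6.05e-06), the cell cycle inhibitor gene Cdkn1a by 1.00 (limma adjusted p = 0.000169) and Klf9, a Krüppel-like factor gene, by 0.61 (limma adjusted p = 0.000873). At the deposited scaling Sgk1 (−0.75) and Cdkn1a (−0.47) were still called lower (limma adjusted p = 5.05e-06 and 0.00263). Klf9 was at −0.08 there, without a call (limma adjusted p = 0.431). Lcn2, at 18 to 55 reads per library, was called lower (−1.28, limma adjusted p = 0.037), but not without vehicle replicate 1 or HDT replicate 1 (limma adjusted p = 0.143 and 0.16). Of 12 immediate-early genes, a class that Per1 shares through cAMP signalling, 2 rose and 3 fell (median log2 fold change −0.11), counts near the all-gene shares of 18.4% and 19.3%, and the deposited scaling gave 5 and 0, against 62.8% and 5.46%. Egr2 and Egr1 rose by 1.205 and 0.80 on the log2 scale, and Sik1 and Fos fell by 0.65 and 0.62 (limma adjusted p = 0.00697, 0.000897, 0.00149 and 0.00637). Sik1 and Fos had no call at the deposited scaling, at −0.12 and −0.09 (limma adjusted p = 0.33 and 0.59). The Egr2 call was lost without HDT replicate 2 (limma adjusted p = 0.0561).

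Of 10 tested genes that respond to fasting, 3 rose and 4 fell (median log2 fold change −0.31), against 18.4% and 19.3% of all tested genes, and the deposited scaling gave 4 and 0 (median 0.22), against 62.8% and 5.46%. The thioesterase gene Acot1 rose by 1.19 and the lipid droplet gene Plin2 by 0.64 on the log2 scale (limma adjusted p = 0.000267 and 0.000659). Txnip, a regulator of glucose uptake, was called lower at −0.52 and the pyruvate dehydrogenase kinase gene Pdk4 at −0.51 (limma adjusted p = 0.00117 and 0.00445), and both were at 0.01 and 0.03 at the deposited scaling.

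The profiles over the 4 libraries were compared with those of 11500 other tested genes with at least 5 CPM on average. Nearest to Arntl by Euclidean distance between centred log2 levels were Peak1 (0.0219), Plekhg2 (0.0297) and Cdc27 (0.0367). Nearest to Dbp were Polr2k (0.0609), Atp6v0e2 (0.0705) and Malat1 (0.0851). With 4 libraries many genes share so simple a profile, and the distances are given as a description.

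**Figure D4:**
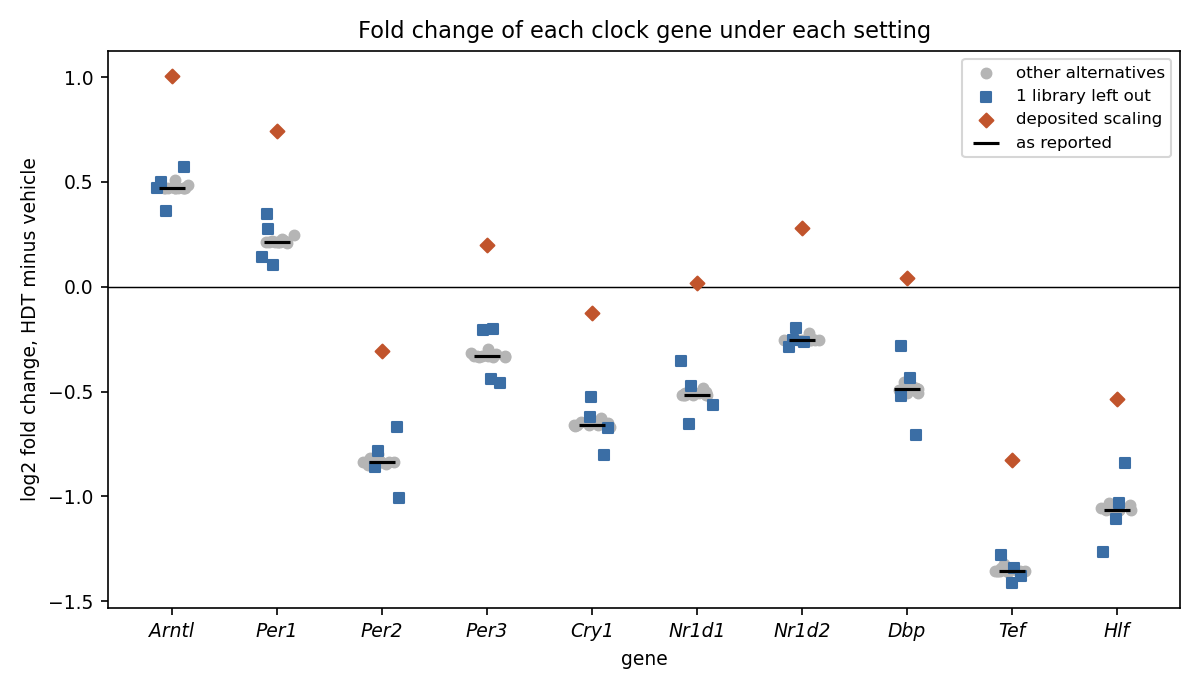
Log2 fold change of each clock gene (HDT minus vehicle) as reported (black line), with 1 library left out (blue squares), under other alternatives (grey circles) and at the deposited scaling (orange diamonds). Leaving out a library moved Dbp between −0.71 and −0.28 and Hlf between −1.27 and −0.84 without a change of sign, whereas the deposited scaling put Per3, Nr1d1, Nr1d2 and Dbp above 0.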

How the data were processed

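RNA from the stomach corpus of 4 mice was sequenced, 2 per group. The deposited table holds normalized counts, a signal that the authors made with tools named, per the submitters' processing notes, as edgeR, featureCounts, Subread 2.0.0 and STAR 2.7.1a, on GRCm38 (mm10). The annotation, the strand setting and how the counts were normalized are not stated in the sources used here. Every value above 0 was a whole number of reads times a constant per library (1.1128 to 1.1381), within 0.01, for 100% of values, so reads were recovered by division.

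The planned test was limma, and it was kept. Genes passing edgeR's filterByExpr on recovered reads were tested with limma 3.58.1 (trend, robust, group as the only term) on log2(value + 1) after TMM scaling (factors 0.848, 0.818, 1.219 and 1.183 for vehicle 1 and 2 and HDT 1 and 2), so fold changes of low genes are understated. Tests were two-sided with Benjamini-Hochberg adjustment over all tested genes at 0.05. CPM are recovered reads over the TMM-scaled library total, given per mouse or as mean ± SD (n = 2). Alternatives used edgeR 4.0.16 and DESeq2 1.42.0 on recovered reads, other scalings, filters, pseudocounts and left-out libraries. The limma script was tested on simulated counts. Positions and exon lengths are from GENCODE M21 (47681 of 52125 symbols matched), and promoter sequences from RefSeq on GRCm38.p6.

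The names of the members and the lists were drawn up with earlier results of these data known. All members and the 11 other clock transcription genes are named, plus the 4 most changed called genes of each further list (all where fewer were called), and the 3 genes nearest to Arntl and to Dbp. Thra, Sphk2, Gm45355 and Gm17597 are named because they overlap members, and Atp4a to check the tissue. Lipf, Pgc, Atp4b, Gif, Fkbp5, Nr3c1, Tsc22d3, Fosb, Nr4a1, Nr4a2 and Atf3 are named to show what list sums and counts rest on. Some genes of the lists are not reported here and were left out of the list counts. Each library is 1 mouse per the labels, so the spread behind the p-values is one between mice. Limma draws the spread of each gene toward that of all genes, so p-values do not rest on that gene's own mice alone.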

Additional observations from a re-analysis of the deposited data

How the results depend on the processing

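Over 17 alternatives, 148 of 170 member values kept their direction and their side of the threshold, 17 lost a call, 1 gained one and 4 changed sign. Counts of clock genes were 1 higher and 4 to 7 lower, except that the deposited scaling gave 3 and 2. Limma without trend or robust moderation gave 4 lower. Over all tested genes the counts were 11483 higher and 998 lower at the deposited scaling and 2148 and 2338 without trend or robust moderation, against 3368 and 3521. The members that changed sign at the deposited scaling were Per3 (log2 fold change 0.199), Nr1d1 (0.017), Nr1d2 (0.279) and Dbp (0.04). Among other named genes, Clock (0.482), Rorb (0.372), Nfil3 (0.177), Bhlhe40 (0.205), Ciart (0.057), Txnip (0.011) and Pdk4 (0.026) also did. The middle of the whole tested set rose as well, from −0.002 with TMM to 0.526. Which scaling gives the right sign for these genes was not tested. Of the members and the 11 other clock transcription genes, 4 without a call changed sign with 1 library left out: Clock ran from −0.144 to 0.035 (0.023 without HDT replicate 2), Rorb from −0.326 to 0.095, Bhlhe41 from −0.107 to 0.351 (−0.016 without vehicle replicate 2) and Ciart from −0.899 to 0.014. The log2 difference of the Arntl to Dbp ratio ran from 0.645 to 1.284.

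With the replicate number as a block, 5 clock genes were lower in place of 7 (Nr1d2 and Dbp lost their calls), 1 was higher, and 2368 and 2628 of all genes were called higher and lower. Deviations of vehicle replicate 1 and HDT replicate 1 from their group means correlated at −0.142 over genes. In each group the other mouse deviates equally in the opposite direction, so this value rests on 1 contrast per group. It cannot decide whether the replicate numbers pair the mice. A crossed pairing, added after seeing the data, gave 4197 higher and 4322 lower genes. Member reads of 109 to 198 for Per3, Per2 and Hlf limit the precision of their values.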
